A study of Arabidopsis thaliana with 34 samples.

Results

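The WRKY transcription factors of Arabidopsis thaliana were examined for their RNA, their H3K27me3 and their VRN2 occupancy in mutants of VRN2. The members are the genes whose name or description in the annotation of the rosette RNA table contains WRKY. There were 63 such genes among the 21884 of that table, with 1 further gene not reported here. Of the 63, 59 carry a WRKY name, and 58 have the WRKY domain in the Pfam annotation of the same table. The 4 without a WRKY name include AT1G64140 and POLAR, both described as WRKY transcription factors. The others are described as an HMG box protein (3xHMG-box1) and a RING/U-box protein (AT3G58720). The Pfam annotation gives the WRKY domain to 3xHMG-box1, but not to AT1G64140, POLAR, AT3G58720, WRKY39 or WRKY45. AT3G58720 overlaps WRKY69, 3xHMG-box1 overlaps WRKY41, and the start of POLAR lies 179 bp beyond the end of WRKY18.

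WRKY proteins bind the W-box, a short promoter element, through a domain that ends in a zinc finger. Group I proteins carry a pair of these domains, group II proteins carry one and are divided into IIa to IIe, and group III proteins have a different type of zinc finger. Many members are known for fast induction by wounding or microbial signals, for control of salicylate and camalexin defence, and for leaf senescence, while others act in trichomes, phosphate nutrition or flowering. By these textbook groups the members comprised 12 of group I, 3 of IIa, 6 of IIb, 14 of IIc, 7 of IId, 7 of IIe and 8 of group III. A further 2, WRKY16 and WRKY19, have a WRKY domain joined to a resistance protein, and the 4 genes without a WRKY name were placed in no group.

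VRN2 is a subunit of Polycomb repressive complex 2, which places trimethylation on lysine 27 of histone H3 (H3K27me3), a mark of silent chromatin. VRN2 protein is removed by the N-degron pathway, for which PRT6 is the ubiquitin ligase. PIF4 is a growth-promoting transcription factor controlled by light. The seedling RNA set held the double mutant vrn2-5 prt6-1, the single mutants vrn2-5 and prt6-1, and the wild type Col-0, with 3 libraries each. The rosette RNA set held vrn2-5 pif4-2 and pif4-2, with 2 libraries each, so that both groups there carry pif4-2 by their labels. Chromatin came from whole seedlings: H3K27me3 in vrn2-5 and in Col-0, and VRN2 tagged with YFP, expressed from the VRN2 promoter in vrn2-5, with 3 immunoprecipitations each. The sources used here give neither plant age nor light regime. Separate plantings are not stated for the replicates, and the p-values therefore describe the spread among these samples, part of which may be technical.

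The 12 seedling libraries fell into 6 deep ones, of 9.23 to 27.9 M reads, and 6 shallow ones, of 1.21 to 1.79 M reads, and each genotype had both kinds. One read was worth 0.205 to 5.00 normalized reads. The 4 rosette libraries held 15.9 to 26.3 M reads. VRN2 RNA was at 44.97 to 50.3 normalized reads in vrn2-5 against 116 to 163 in Col-0. The double mutant had 36.7 to 76.8 normalized reads of VRN2, against 118 to 135 for its prt6-1 control. PRT6 reads did not check the prt6-1 label, since they were at 49.6 to 142 in the libraries labelled prt6-1 against 0 to 57.7 in Col-0. Directions below that involve prt6-1 rest on the labels. Replicate 3 of every seedling genotype stood apart from replicates 1 and 2, and replicate 2 of vrn2-5 pif4-2 stood apart in the rosettes. In that rosette library 1018 of the 17282 genes with at least 10 reads in each of the other 3 libraries had no read. The count was 96 of 16479 in the other vrn2-5 pif4-2 library, and 2 and 3 in the pif4-2 libraries. Of the WRKY members, 7 of 42 had no read there in the same sense: WRKY13, WRKY23, WRKY28, WRKY29, WRKY45, WRKY65 and WRKY74.

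H3K27me3 covered many of the WRKY genes. A region of the mark found in at least 2 of the 3 replicate tables overlapped the gene body or the 1 kb upstream of 29 of the 63 members, which is 46%, against 32.4% of the 21713 nuclear genes with coordinates (TAIR10). When the region had to span at least 50% of that window, the counts were 28 members, or 44.4%, against 17% of all genes. The mark followed the subgroups unevenly. All 6 group IIb members were marked, as were 12 of 14 in IIc, 5 of 8 in group III and 4 of 7 in IIe. In contrast 1 of 12 group I members (WRKY58) and 1 of 7 IId members (WRKY74) were marked, and none of the 3 in IIa, of the 2 resistance-protein fusions or of the 4 other genes. No test was run on the subgroup counts.

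Marked members carried little RNA. Per kb of gene, the median over the 21 marked members in the seedling table was 14.2 normalized reads, against 51.1 over the 32 unmarked ones. Over all genes these medians were 35.9 for marked and 62.2 for unmarked genes. In rosettes the marked members had a median of 0.349 FPKM (n = 29), against 3.36 FPKM for the unmarked ones (n = 34), with 2.42 and 7.05 FPKM over all marked and unmarked genes. At least 1 rosette library had no read for 22 of the 29 marked members, against 4 of the 34 unmarked members. Leaving out replicate 2 of vrn2-5 pif4-2, which has 20.9% of all genes at 0, the counts were 11 of 29 and 3 of 34. The 10 members missing from the seedling table (WRKY13, WRKY30, WRKY34, WRKY38, WRKY41, WRKY55, WRKY58, WRKY62, WRKY71 and WRKY74) included 8 marked ones.

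**Figure D1:**
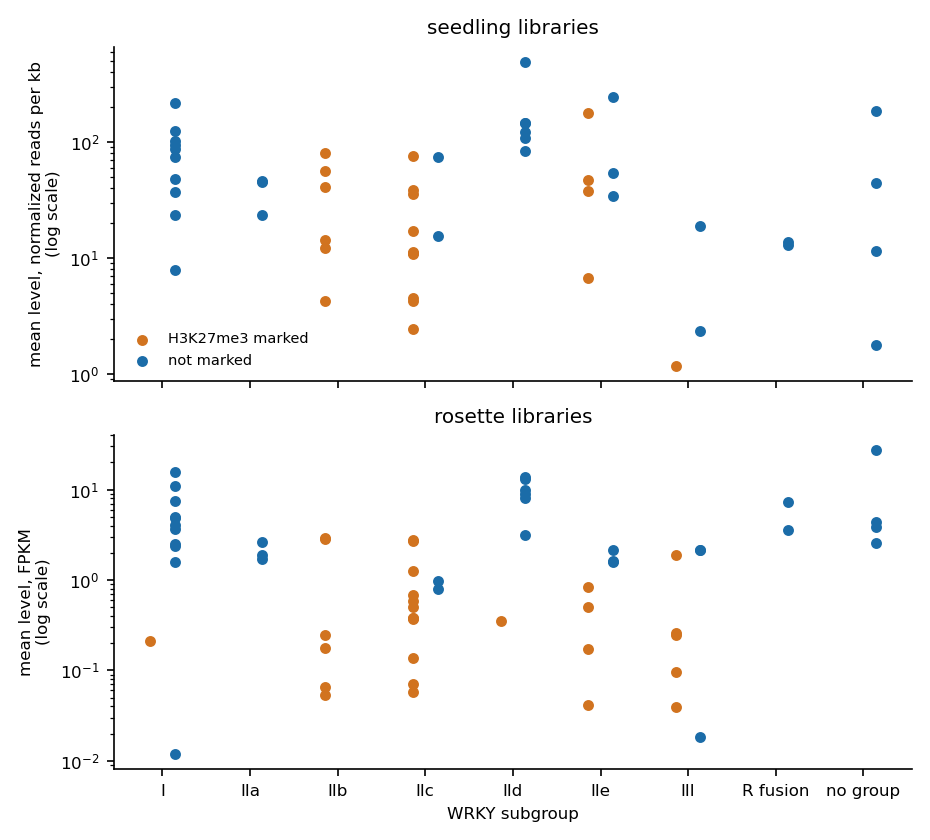
RNA level of each WRKY member per kb of gene, on log axes, by subgroup, in seedlings (normalized reads per kb, mean of 12 libraries) and rosettes (authors' FPKM, mean of 4 libraries), with H3K27me3-marked and unmarked members in different colours. Group IId has the highest subgroup median in both tissues, 135 normalized reads per kb and 8.97 FPKM, and most marked members lie in the lower part of the plot.

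The level order was led by unmarked genes. WRKY15, a IId member known for responses to oxidative and osmotic stress, was the highest in seedlings at 488 ± 74.03 normalized reads per kb (SD, n = 12). WRKY22, which acts downstream of the flagellin receptor, followed at 244 ± 37.5, and WRKY26, a group I member known for heat tolerance, at 215 ± 104 (SD, n = 12 each). These 2 genes did not differ beyond their spread. AT1G64140 had 186 ± 24.5, and WRKY65, the highest of the marked members, 177 ± 28.4 (SD, n = 12 each). In rosettes the order by mean FPKM was AT1G64140 with 27.2, WRKY1 with 15.8, WRKY15 with 13.6, WRKY11 with 13.3, WRKY3 with 11 and WRKY21 with 9.79. The best known defence members were lower. In seedlings WRKY33 had 125 ± 34.5 normalized reads per kb, WRKY40 45.7 ± 15.6, WRKY75 35.6 ± 13.1, WRKY18 23.3 ± 8.68 and WRKY53 18.8 ± 9.95 (SD, n = 12 each). The SD here spans all genotypes. In whole-plant RNA, fewer cells of a type and less RNA per cell cannot be told apart.

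The H3K27me3 tables gave a ratio of read density in vrn2-5 over Col-0 for each region, 1 table per replicate. Which condition was which was read from the order of names in the comparison's title, and the ratios hold only under that reading. If the names were exchanged, every ratio below would be inverted and every higher call would be a lower one, giving 9 lower and 2 higher members. The directions of mark in the rest of the text, gains and losses included, carry this condition. In the authors' deposited tables the median ratio over all regions was 0.893, 0.992 and 0.975 in replicates 1, 2 and 3, and the marked WRKY members had medians of 1.05, 1.04 and 0.999. Regions with an FDR under 0.05 in 1 direction were joined across tables where they overlapped. A member was counted in that direction when its window overlapped a joined interval with regions from 2 or more tables. The directions were counted apart, and 22 of all nuclear genes, but 0 members, fell in both. By that rule 2 members, or 3.17%, were lower in vrn2-5, against 11.8% of all nuclear genes, and 9 members, or 14.3%, were higher, against 3.44%. Without replicate 1 the lower shares were 3.17% and 4.76%, and the higher shares 7.94% and 1.4%. Among marked genes alone, lower calls fell on 6.9% of the marked members and 36.5% of all marked genes, and higher calls on 31.03% and 10.6%.

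The 2 members with less mark in vrn2-5 were WRKY49 and WRKY38. The region over WRKY49 (gene at chr5:17371808-17373221) had ratios of 0.844, 0.907 and 0.907 in the authors' deposited tables, with FDRs of 6.73e-15, 0.0177 and 0.00421. The region over WRKY38, a negative regulator of basal defence (gene at chr5:7495455-7496990), had ratios of 0.895, 0.941 and 0.915 in the authors' deposited tables. In both genes all 3 replicates lay on the same side. The median over all regions in replicate 1 was 0.893, close to the ratio of WRKY38 and above that of WRKY49. These regions are longer than the genes, 4.2 to 8.8 kb at WRKY49 and 8.4 to 15.2 kb at WRKY38, so the values also cover neighbouring sequence.

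Under the reading above, the ratio farthest above 1 in each table among the marked members was that of WRKY47, a IIb member (gene at chr4:744804-748554). Its region of 3.2 to 3.8 kb had ratios of 1.21, 1.23 and 1.18 in the authors' deposited tables, or the most reduced of the marked members if the names were exchanged. WRKY57, known for drought tolerance and for restraining jasmonate-induced senescence, had 1.13, 1.06 and 1.17 in the authors' deposited tables. WRKY8, known for responses to salt and to virus infection, had 1.07, 1.08 and 1.05 in the same authors' deposited tables. Regions of these 3 genes were called higher in every replicate.

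The regions directly over the other 6 members with a higher call passed in fewer tables. WRKY48, a negative regulator of basal resistance, had ratios of 1.17, 1.04 and 1.09 in the authors' deposited tables, with its region in replicate 2 not called, although the joined interval over the gene held called regions of all 3 tables. WRKY12, which acts in flowering and in restraining secondary walls of the pith, had 1.07, 1.11 and 1.02 in the authors' deposited tables. WRKY35 had 1.07, 1.04 and 0.981 there (authors' deposited tables), so its replicates did not all lie on 1 side. WRKY54 and WRKY55 are neighbours separated by 919 bp and share 1 region, with ratios of 1.01, 1.07 and 1.09 in the authors' deposited tables. They are therefore 1 observation and not 2. WRKY72, which acts in basal immunity, had 1.07, 1.03 and 0.972 in the authors' deposited tables, and the region over it was called in replicate 1 only. Its second call came from a region elsewhere in the same joined interval, so that 8 of the 9 had their own region called in at least 2 tables.

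**Figure D2:**
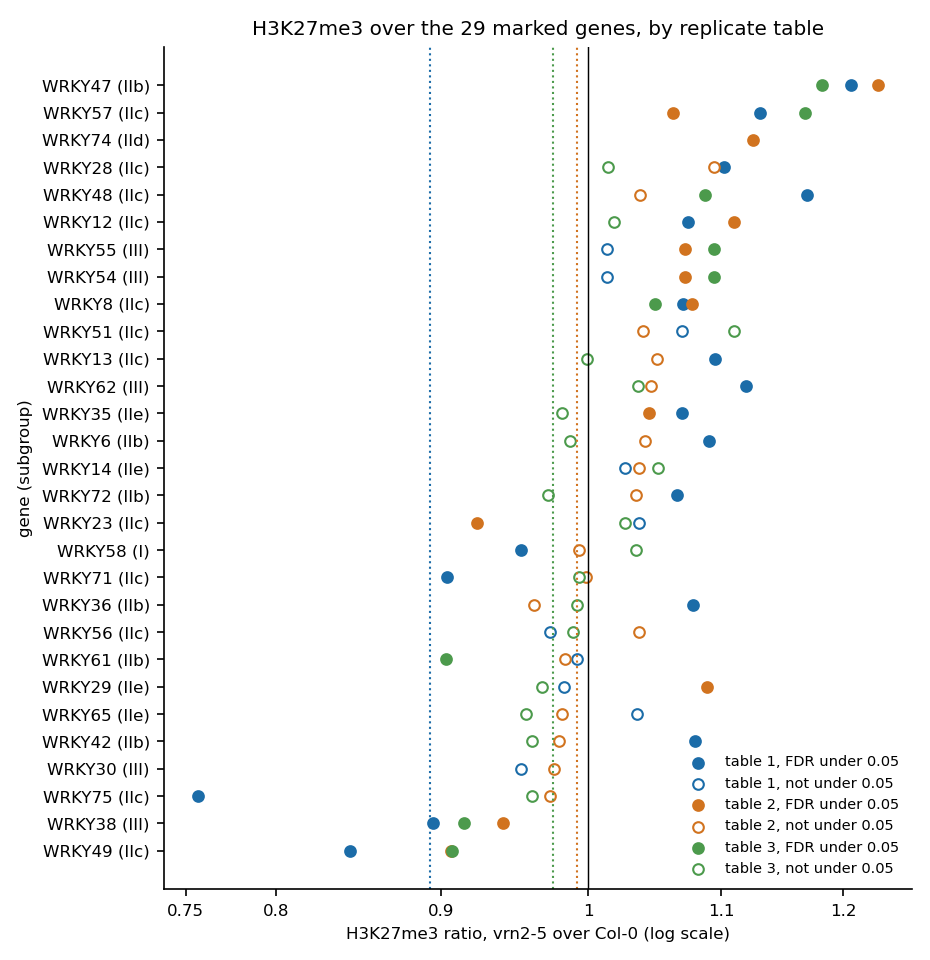
Ratio of H3K27me3 read density in vrn2-5 over Col-0, from the authors' deposited tables, for the regions over the 29 marked WRKY members, 1 colour per replicate table, with filled points for an FDR under 0.05 and dotted lines at each table's median over all regions. WRKY47 lies above 1.18 in all 3 tables, WRKY49 and WRKY38 below 0.942, and WRKY75 is low in replicate 1 only.

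WRKY75, known for phosphate starvation, root hairs and senescence, showed how far single tables can differ. Its region had a ratio of 0.757 in replicate 1, the lowest of the marked members, but 0.973 and 0.961 in replicates 2 and 3 of the authors' deposited tables, where it was not called. In the authors' deposited tables, 19 of the 28 marked members with a region were above 1 in replicate 1, 18 of 29 in replicate 2 and 13 of 27 in replicate 3. Replicate 1 of the authors' deposited tables called 63.9% of all regions lower, against 26.9% and 24.2% in replicates 2 and 3, while 10.8%, 25.02% and 11.5% were called higher. Of the marked members 13, 9 and 6 were called higher and 5, 3 and 3 lower in the 3 tables; over all 63 members 13, 9 and 6 were higher and 7, 3 and 4 lower.

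VRN2-YFP peaks found in at least 2 of the 3 replicate lists overlapped 3 members, WRKY33, WRKY40 and WRKY23. That is 4.76% of the members, against 4.0% of all nuclear genes. Peak folds and -log10 q values below are the authors' own for each peak. WRKY33, a group I activator of camalexin genes that is needed for resistance to necrotrophic fungi, had peaks in all 3 lists. Its gene spans chr2:16108235-16110766. Replicate 1 had peaks of fold 1.82 and 1.73, replicate 2 a peak of 1.98 (chr2:16109373-16110190) and replicate 3 a peak of 1.91 (chr2:16108874-16109530). The peak in replicate 2 overlapped neither of those in replicate 1 and was joined to the first of them by the peak in replicate 3. All 4 summits lay inside the gene, 755 to 2189 bp from its start.

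WRKY40, a repressor of early defence and abscisic acid responses, had peaks in replicates 1 and 2, of fold 1.87 (chr1:30384489-30385326) and 2.37 (chr1:30384439-30385648). WRKY23, an auxin-inducible member, had peaks in the same replicates of fold 1.89 (chr2:19406115-19406579) and 2.30 (chr2:19406009-19406343). The median fold over all peaks of a list was 1.94, 1.86 and 1.90. The replicate 2 peaks of WRKY40 and WRKY23 ranked within the top 11.5% and 13.3% of their list by fold, while the other peaks of the 3 genes ranked within the top 35.2% to 83.4%. The q value of the WRKY40 peak in replicate 2 was 10.7 on the -log10 scale, the strongest among the members, and no member had 2 lists at 10 or more. Of the 3 genes only WRKY23 was marked by H3K27me3 in at least 2 replicates, whereas 78.6% of all bound nuclear genes were. WRKY40 had a region of the mark in replicate 1 alone, over 61.2% of its window. That region held the VRN2-YFP peak of WRKY40 in replicate 1.

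Another 7 members had no peak that 2 lists shared, but had one in a single list or, at WRKY35, in 2 lists without overlap. These were WRKY8, WRKY12, WRKY35, WRKY49, WRKY55, WRKY61 and WRKY65. All 7 were marked by H3K27me3, against 56.4% of the 2529 nuclear genes of the same kind. The 10 members with a peak in any list made up 15.9%, against 15.6% of all genes. Of all these peaks, only the one at WRKY49 had its summit upstream of the gene, 599 bp from the start.

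WRKY33 RNA had lower values in each vrn2-5 library than in any Col-0 library, a difference that did not pass the test across all genes. It had 189, 225 and 258 normalized reads in vrn2-5, against 307, 443 and 282 in Col-0, and the groups did not overlap. In the double mutant vrn2-5 prt6-1 it had 215, 202 and 186 normalized reads, against 233, 257 and 256 in prt6-1, again without overlap. The means were 224 ± 34.8 in vrn2-5 and 344 ± 86.3 in Col-0, and 201 ± 14.4 in vrn2-5 prt6-1 and 248 ± 13.6 in prt6-1 (SD, n = 3 each). On the log2(value + 5) scale the difference was -0.59 for vrn2-5 (SE 0.18, limma, adjusted p = 1) and -0.30 for vrn2-5 prt6-1 (SE 0.18, limma, adjusted p = 1). All 9 mutant libraries lay below the 3 Col-0 libraries. WRKY33 was the 1 member of 46 with all mutant libraries on 1 side of Col-0, or 2.17%, against 0.577% of all genes, and the comparisons with Col-0 share those 3 libraries. The difference between vrn2-5 and Col-0 was -0.57 in the deep libraries (1 against 1), where vrn2-5 is replicate 1 and Col-0 is replicate 3. It was -0.60 in the shallow libraries (2 against 2), where vrn2-5 includes replicate 3. Over 21 alternative fits it ranged from -0.83 without replicate 3 (limma, adjusted p = 0.473) to -0.40 without replicate 2 of Col-0.

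The other bound members, WRKY40 and WRKY23, had overlapping groups in both comparisons. WRKY40 had 50.1, 115 and 63.7 normalized reads in vrn2-5, against 59.99, 46.03 and 78.2 in Col-0. It had 40.99, 36.7 and 54.9 in the double mutant vrn2-5 prt6-1, against 61.02, 52.4 and 68.2 in prt6-1. Both pairs of groups overlapped, and the log2 differences were 0.24 and -0.42 (SE 0.31 each, limma, adjusted p = 1 for both). WRKY23 had 22.9, 9.99 and 13.4 normalized reads in vrn2-5, against 22.5, 42.5 and 22.5 in Col-0. It had 25.3, 27.5 and 15.96 in the double mutant vrn2-5 prt6-1, against 15.3, 21.6 and 16.4 in prt6-1. Its log2 differences of -0.74 and 0.28 (SE 0.35 each, adjusted p = 1 for both) had opposite signs. The unadjusted p of WRKY23 was 0.0601 for vrn2-5 and 0.446 for vrn2-5 prt6-1 (limma).

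**Figure D3:**
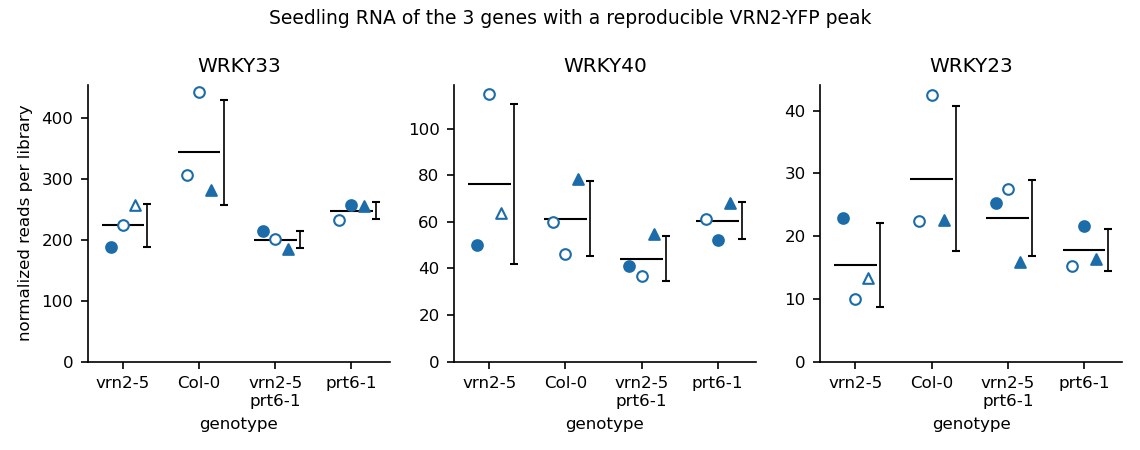
Normalized reads of WRKY33, WRKY40 and WRKY23, the members with reproducible VRN2-YFP peaks, in each seedling library by genotype (circles, replicates 1 and 2; triangles, replicate 3; filled, deep libraries; open, shallow libraries), with the mean as a line and the SD as a bar (n = 3). The 9 mutant libraries of WRKY33 lie between 186 and 258 normalized reads and the Col-0 libraries between 282 and 443, while the groups of WRKY40 overlap.

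Across the family no RNA change passed an adjusted p of 0.05 between VRN2 mutants and their controls. Of the 46 members above the level filter, 0 were called between vrn2-5 and Col-0 by limma, against 0.0238% of the 16820 genes tested. With vrn2-5 prt6-1 against prt6-1 the count was also 0, against 0.0% of genes. At an unadjusted p under 0.05 there were 2 members (WRKY33 and WRKY29), or 4.35%, in vrn2-5, against 2.85% of genes, and 0 members in vrn2-5 prt6-1, against 1.14%. The tools edgeR and DESeq2 on the recovered reads called 0 in each. The median log2 difference of the members was -0.046 for vrn2-5 and 0.027 for vrn2-5 prt6-1, and over all genes -0.0022 and 0.00039. Groups did not overlap for 2 members in each comparison, or 4.35%, against 5.5% and 6.06% of all genes. The 5th to 95th percentile of all genes held 41 and 40 of the 46 members. By subgroup, the median log2 difference in vrn2-5 was -0.082 over the 10 tested members of group I, 0.13 over the 3 of IIa, -0.11 over the 6 of IIb and -0.12 over the 8 of IIc. It was -0.089 over the 6 tested members of IId and 0.077 over the 7 of IIe. No test was run on these medians.

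The members of lowest p varied strongly between libraries. WRKY29, which acts with WRKY22 downstream of the flagellin receptor, had 50.9, 74.9 and 80.5 normalized reads in vrn2-5, against 30.0, 49.6 and 56.6 in Col-0 (log2 0.57, limma, adjusted p = 1). Those groups overlapped. WRKY53, a regulator of leaf senescence, had 35.95, 5.00 and 33.5 in vrn2-5, against 56.2, 53.1 and 32.9 in Col-0, and in its lowest library the value stands for a single read. Next in order for vrn2-5 were WRKY1 at -0.45 and WRKY47 at -0.47. For vrn2-5 prt6-1 the lowest p values belonged to WRKY61 at -1.08, WRKY69 at 0.61, WRKY33, WRKY19 at -1.55, WRKY40 and WRKY14 at -0.41, all with adjusted p = 1 (limma). WRKY69 is overlapped by AT3G58720 and its counts may hold reads of that gene.

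**Figure D4:**
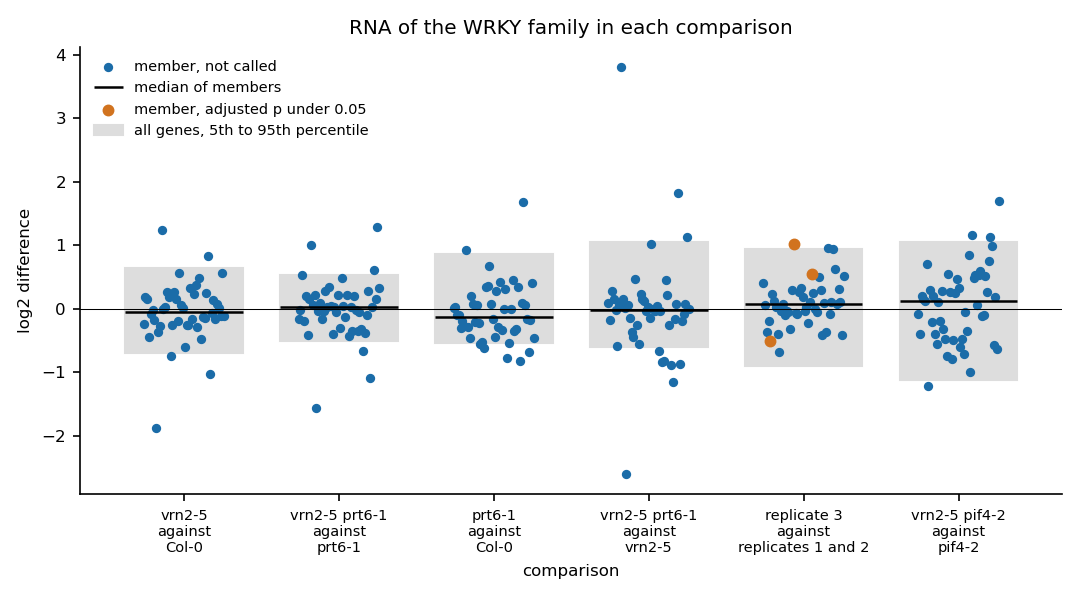
Log2 difference of each tested WRKY member (points; orange, adjusted p under 0.05) in 6 comparisons, with the members' median as a line and the 5th to 95th percentile of all genes in grey. Only replicate 3 against replicates 1 and 2 has called members, 3 of 46, and the members' medians lie between -0.13 and 0.13.

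The changed marks were not matched by called RNA changes. Of the 9 members with more H3K27me3 in vrn2-5, 4 had enough reads to be tested in seedlings, and their median log2 difference was -0.19 in vrn2-5, with 3 of the 4 lower. In vrn2-5 prt6-1 against prt6-1 the same 4 had a median of 0.23, with 2 lower. Between vrn2-5 pif4-2 and pif4-2 rosettes 6 of the 9 were tested, with a median of 0.40 and 1 lower. WRKY47, with the highest ratio in each table, had 90.5, 59.96 and 107 normalized reads in vrn2-5, against 127, 88.5 and 144 in Col-0. The groups overlapped (log2 -0.47, SE 0.24, limma, adjusted p = 1). In the prt6-1 background the WRKY47 values were 121, 110 and 116 in the double mutant vrn2-5 prt6-1, against 95.3, 127 and 133 in prt6-1, a log2 difference of -0.017. WRKY49, with less mark, was at a log2 difference of -0.14 in vrn2-5 (SE 0.21, adjusted p = 1), and WRKY38 is not in the seedling table. The 16 marked members tested in seedlings had a median of -0.12 in vrn2-5, with 11 lower. In vrn2-5 prt6-1 against prt6-1 their median was 0.0036, with 8 lower. The 17 marked members tested in rosettes had a median of -0.48 in vrn2-5 pif4-2 against pif4-2, with 9 lower. Among them WRKY13, WRKY23, WRKY28, WRKY29, WRKY65 and WRKY74 had no read in replicate 2 of vrn2-5 pif4-2, which has 20.9% of all genes at 0. What that library adds to this median was not tested.

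No member was called in the comparisons of libraries labelled prt6-1 with their controls either. Between prt6-1 and Col-0 0 of 46 were called by limma, against 0.184% of genes, with 3 members at an unadjusted p under 0.05, or 6.52% against 4.14% of genes. Between vrn2-5 prt6-1 and vrn2-5 0 of 46 were called, against 0.208%, with 5 members at an unadjusted p under 0.05, or 10.9% against 6.18% of genes. For the interaction of vrn2-5 and prt6-1 the count was 0, against 0.00595%, and 0 members had an unadjusted p under 0.05, against 1.34% of genes. edgeR and DESeq2 called 0 members in all 3 of these. The members' medians were -0.13, -0.013 and 0.076, against 0.0052, 0.012 and 0.0087 over all genes. In prt6-1 against Col-0 9 members did not overlap, 8 of them lower, which is 19.6%, against 9.55% of all genes. Group I had a median of -0.27 in prt6-1, with 2 of its 10 tested members above 0, and none of the 10 was called. In vrn2-5 prt6-1 against vrn2-5 6 members did not overlap, or 13.04%, against 11%.

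Among the members of lowest p in prt6-1 was WRKY29, with 72.5, 70.4 and 76.1 normalized reads in prt6-1, against 30.0, 49.6 and 56.6 in Col-0 (log2 0.67, limma, adjusted p = 1). Its groups did not overlap. WRKY39, a heat-response member, had 263, 246 and 295 in prt6-1, against 169, 173 and 267 in Col-0, with overlap (log2 0.42). WRKY25, which acts with WRKY26 and WRKY33 in heat tolerance, had 103, 190 and 183 in prt6-1, against 229, 191 and 253 in Col-0 (log2 -0.53). WRKY53 had 22.9, 24.8 and 24.4 in prt6-1, against 56.2, 53.1 and 32.9 in Col-0, without overlap (log2 -0.82). None of these 4 passed the adjusted threshold.

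With vrn2-5 prt6-1 against vrn2-5, WRKY22 had 314, 280 and 255 normalized reads in vrn2-5 prt6-1, against 395, 380 and 375 in vrn2-5. Its groups did not overlap (log2 -0.44), but the adjusted p of each member was at least 0.445. WRKY45, which promotes phosphate uptake, was at -0.82, WRKY21 at -0.36 and WRKY40 at -0.66. The widest differences belonged to the 2 resistance-protein fusions, whose counts jumped between libraries. WRKY16 had 119, 206 and 64.6 normalized reads in vrn2-5 prt6-1, against 22.1, 0 and 0 in vrn2-5 (log2 3.80, limma, adjusted p = 0.445). It also had 0, 70.8 and 83.7 in Col-0, so that replicates of 1 genotype differed as much. WRKY19 had 46.98, 0 and 54.9 in vrn2-5 prt6-1, against 103, 205 and 147 in vrn2-5, and 30.0, 156 and 40.99 in Col-0. WRKY19 and WRKY16 also led the interaction, at -2.80 and 2.88, with WRKY23 at 1.02, and the smallest adjusted p of a member there was 1.00.

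The difference that did pass lay between replicates. Comparing replicate 3 with replicates 1 and 2 over the 4 genotypes, limma called 3 of the 46 members, or 6.52%, against 20.5% of all genes. WRKY26 was higher in replicate 3 in every genotype. It had 388 normalized reads in vrn2-5 prt6-1 replicate 3, against 215 and 270 in replicates 1 and 2. It had 607 in vrn2-5 replicate 3 against 331 and 355, 378 in prt6-1 replicate 3 against 133 and 214, and 688 in Col-0 replicate 3 against 251 and 234. The log2 difference was 1.03 (SE 0.15, limma, adjusted p = 0.00093). WRKY26 was at 0.90 within the deep libraries and 1.34 within the shallow ones. Its values between vrn2-5 and Col-0 were -1.04 in the deep pair, where Col-0 is replicate 3, and 0.92 in the shallow libraries, where vrn2-5 includes replicate 3.

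WRKY4, which acts in resistance to necrotrophs, was also higher in replicate 3, at 268, 298, 234 and 359 normalized reads in vrn2-5 prt6-1, vrn2-5, prt6-1 and Col-0. Replicates 1 and 2 ranged from 164 to 227 (log2 0.56, SE 0.11, limma, adjusted p = 0.0053). WRKY11, a negative regulator of basal defence, was lower, at 193, 201, 194 and 238 in replicate 3 of the same genotypes, against 233 to 370 in replicates 1 and 2 (log2 -0.51, SE 0.11, adjusted p = 0.0102). For both genes every replicate 3 library lay on 1 side of the other 2 libraries of its own genotype. DESeq2 on the recovered reads called 4 more members, WRKY3, WRKY17, WRKY18 and WRKY45. It called 5087 genes in all, against 3445 by limma. With edgeR, WRKY17 was called in addition.

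**Figure D5:**
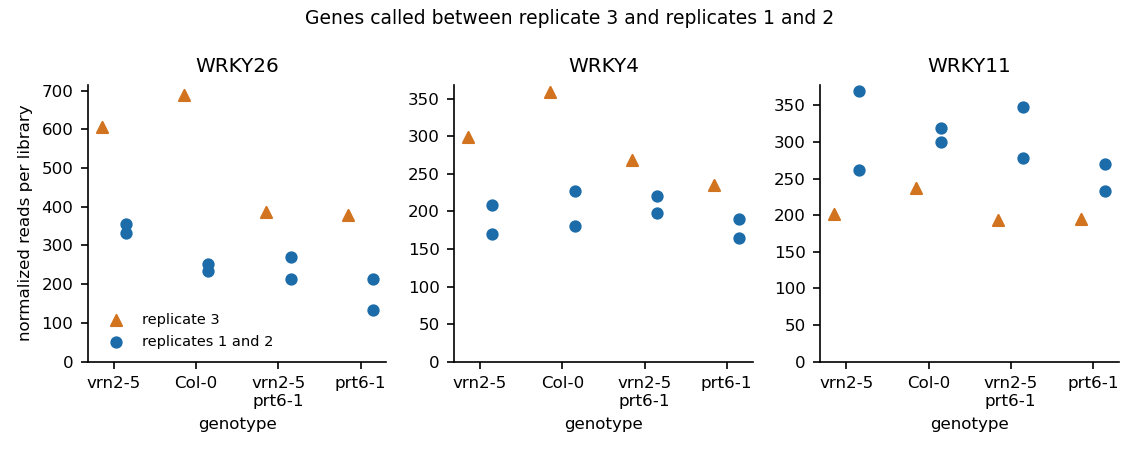
Normalized reads of WRKY26, WRKY4 and WRKY11 in each seedling library by genotype (triangles, replicate 3; circles, replicates 1 and 2). The replicate 3 triangle is the highest of its genotype for WRKY26 and WRKY4 and the lowest for WRKY11.

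Some markers of leaf state and tissue differed in replicate 3 as well. Of 4 senescence markers tested 2 were called, both higher, against 20.5% of all genes called in either direction. SEN1 was at a log2 difference of 1.72 (limma, adjusted p = 0.000128) and ORE1 at 0.61 (adjusted p = 0.00574), while NAP was at 0.30 and SGR1 at -0.35 without passing. The summed level of the 5 senescence markers in the table was 9130 to 19277 normalized reads in replicate 3, against 2952 to 6415 in replicates 1 and 2. Such a sum weighs genes by their level. The median log2 difference of the 4 tested markers was 0.45, with 3 above 0. Of 7 shoot markers 3 were called, all lower: the carbon fixation genes RCA at -1.18, RBCS2B at -1.35 and RBCS3B at -0.75. The list's median was -0.44 with 2 of 7 above 0, and its sums overlapped, at 317970 to 404342 in replicate 3 against 267446 to 614730 in replicates 1 and 2. Of 7 root markers tested 1 was called, SCR at -0.35, and the list's median was -0.35 with 2 of 7 above 0. The part of these differences in the WRKY values was not tested.

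In rosettes no member was called between vrn2-5 pif4-2 and pif4-2. With edgeR, 0 of the 49 members tested passed, against 0.0% of the 18561 genes, with 1 member at an unadjusted p under 0.05 and 0 called by DESeq2. The median log2 difference of the members was 0.13, against -0.013 over all genes, and 0.21 without replicate 2 of vrn2-5 pif4-2. The sign of this median was not stable: it was -0.045 without replicate 1 of vrn2-5 pif4-2 and -0.13 without replicate 2 of pif4-2. Groups of 2 did not overlap for 12 members, or 24.5%, 8 of them higher, against 36% of all genes. In the authors' deposited table of this comparison 0 members and 7 genes had an adjusted p under 0.05, and the smallest among the members in the authors' deposited table was 0.987.

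WRKY8 had the lowest p in rosettes. It was at 5.71 and 6.04 CPM (scaled by TMM) in vrn2-5 pif4-2, against 2.19 and 1.44 CPM in pif4-2. The libraries of each genotype lay close together and the groups did not overlap (log2 1.69, SE 0.54, edgeR, adjusted p = 0.945). WRKY8 is also among the members with more H3K27me3 in vrn2-5 seedlings, a different tissue and background. Without replicate 2 of vrn2-5 pif4-2 the log2 difference of WRKY8 was 1.66, and without replicate 1 it was 1.73. Without replicate 1 or 2 of pif4-2 it was 2.02 and 1.42. In each of these fits the lone library of a genotype is assumed to vary like the 2 libraries of the other.

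Next came WRKY44, known as TTG2 for trichomes and seed coats, with 5.14 and 8.51 CPM in vrn2-5 pif4-2, against 3.37 and 2.72 CPM in pif4-2 (log2 1.16). WRKY6, which acts in phosphate responses and senescence, had 9.18 and 7.88 CPM in vrn2-5 pif4-2, against 4.95 and 5.19 CPM in pif4-2 (log2 0.75). WRKY60 had 3.81 and 7.67 CPM in vrn2-5 pif4-2, against 1.88 and 3.34 CPM in pif4-2 (log2 1.14). The groups of all 3 did not overlap, and their adjusted p was 0.945 (edgeR). WRKY11 was high in 1 library only, with 17.5 and 42.6 CPM in vrn2-5 pif4-2, against 18.8 and 18.2 CPM in pif4-2. Its log2 difference was 0.70, and -0.079 without replicate 2 of vrn2-5 pif4-2.

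Fits that leave out 1 library of vrn2-5 pif4-2 rest on a single library of that genotype. Without replicate 2 the log2 differences (edgeR) were, for example, 0.86 for WRKY6 and for WRKY32, 1.66 for WRKY8 and -1.70 for WRKY53. WRKY50 was at -7.56 there, with no read in the remaining library. WRKY53 had 1.04 and 5.28 CPM in the 2 vrn2-5 pif4-2 libraries, against 4.16 and 2.64 CPM in pif4-2, and WRKY50, which acts in salicylate repression of jasmonate signalling, had 0 and 2.01 CPM, against 1.49 and 0.70 CPM. The vrn2-5 pif4-2 libraries thus lay on both sides of pif4-2 for these 2 genes. Among the bound members WRKY40 and WRKY23 did the same. WRKY40 had 0.46 and 5.41 CPM in vrn2-5 pif4-2, against 1.93 and 1.36 CPM in pif4-2, and WRKY23 had 4.10 and 0 CPM, against 3.59 and 2.1 CPM. WRKY33 varied less, with 13.9 and 8.68 CPM in vrn2-5 pif4-2, against 9.28 and 8.61 CPM in pif4-2, and its groups overlapped.

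Genes that act with the WRKY family showed no called difference in the VRN2 comparisons either. Of 9 upstream kinases and VQ-motif partners, such as MPK3 and MPK6, 7 were tested in seedlings, with medians of -0.059 in vrn2-5 and -0.13 in vrn2-5 prt6-1. Of 16 salicylate and camalexin genes, such as ICS1, 10 were tested, with medians of 0.082 and 0.090. Of 12 genes induced fast by wounding or touch, 10 were tested, with medians of -0.30 and 0.028, and 2 of the 10 were above 0 in vrn2-5. The lowest p in that list for vrn2-5 was that of ZAT10, a zinc-finger repressor, at -1.18 (limma, adjusted p = 1). CML38, a calmodulin-like gene of the same list that is also part of the hypoxia response, was higher in the libraries labelled prt6-1 than in Col-0 (log2 2.36, adjusted p = 0.0206). It was also higher in vrn2-5 prt6-1 than in vrn2-5 (log2 3.03, adjusted p = 0.00249). CML38 was the single gene of the 10 above 0 in prt6-1 against Col-0, where the list's median was -0.30, with the same Col-0 libraries as in the comparison of vrn2-5.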

How the data were processed

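Seedling RNA values are a normalized signal that the authors deposited for 18480 genes, read counts divided by a size factor. Every value came out as whole reads (100% within 0.01), so the recovered reads gave library depth and were used for edgeR and DESeq2 as alternatives. Rosette raw counts and FPKM values were deposited by the authors, with their own log2 fold changes and adjusted p-values. H3K27me3 tables were deposited as 1 comparison per replicate, with a ratio of normalized read density and p-values or FDRs per region. VRN2-YFP peak lists were deposited per replicate, with a fold and a -log10 q value per peak. Per the submitters' processing notes, tools named were BWA, Bowtie, DESeq2, MACS2, MACS3 and SICER, with TAIR10. For replicate 3 of VRN2-YFP the caller is not given. Per the labels, H3K27me3 samples carry the AB290 text of the VRN2-YFP samples, and their own antibody is not named.

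Seedling genes with a mean of at least 10 (16820) were tested with limma trend 3.58.1 on log2(value + 5), genotype as the only term, over all 12 libraries. Such folds understate changes of low genes. Rosette counts were tested with edgeR's quasi-likelihood test 4.0.16 (TMM, low counts filtered, 18561 genes). DESeq2 was 1.42.0 and R 4.3.3. Adjustment was Benjamini-Hochberg over all genes tested, threshold 0.05. Scripts were tested on simulated data. Peaks or regions were merged over replicates, needed 2 of 3 lists and an overlap of at least 1 bp with a gene body plus 1 kb upstream. Levels per kb are means over libraries divided by gene length.

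Libraries numbered 3 deviated together across genotypes and those numbered 1 and 2 did not, so the numbers were not taken as pairs. Members were named when called, among the 6 lowest p values of a comparison, bound or changed in H3K27me3, among the highest per kb, or best known (WRKY18, WRKY33, WRKY40, WRKY53 and WRKY75), and other members as examples of a range. The 7 missing rosette members, the 10 missing seedling members and the 7 single-list members were named after their values were seen. The members, lists and tests were chosen with earlier results of these data known. One other gene is not reported here.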

Additional observations from a re-analysis of the deposited data

How the results depend on the processing

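Alternatives were another pseudocount, no filter on low values, edgeR or DESeq2 on recovered reads, replicate 3 as a term, other subsets of libraries and, chosen after seeing the data, depth class as a term. Over 768 checks of named members, 754 kept their direction and side of the threshold, 13 passed the threshold only under the alternative and 1 changed sign. That was WRKY11 in rosettes, which ranged from -0.079 without replicate 2 of vrn2-5 pif4-2 to 1.204 without replicate 1.

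The count of members called stayed at 0 under each seedling alternative run for the genotype comparisons and the interaction. For replicate 3 against replicates 1 and 2 it was 3, and DESeq2 gave 7. It was 4 with edgeR, with depth class as a term (WRKY18 added) and without replicate 2 of vrn2-5 prt6-1, and 3 under the others. In rosettes, leaving out 1 library gave 0 to 22 members. For vrn2-5 against Col-0, genes called ranged from 1 to 23, with 4 as reported and 23 without replicate 3 of Col-0. The range was 21 to 55 for prt6-1 against Col-0 (31 as reported) and 25 to 64 for vrn2-5 prt6-1 against vrn2-5 (35). It was 0 to 6 for the interaction (1) and 2283 to 5087 for replicate 3 (3445). In rosettes 0 genes were called as reported, 7 by DESeq2 and 3 with the replicate number as a block.

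Members bound by VRN2-YFP numbered 10 with 1 list, 1 with all 3 lists and 0 at a -log10 q of at least 10. Their shares were 15.9%, 1.59% and 0%, against 15.6%, 1.45% and 1.04% of all nuclear genes. Without 1 replicate they numbered 1 to 2 (WRKY33 alone without replicate 2, WRKY23 and WRKY40 without replicate 3). That is 1.59% to 3.17%, against 1.52% to 3.4% of all nuclear genes. Members with more H3K27me3 in vrn2-5 numbered 5 at an FDR of 0.01, or 7.94%, against 2.21% of all nuclear genes. In all 3 tables they numbered 4 (WRKY8, WRKY47, WRKY48 and WRKY57), or 6.35%, against 1.08%. Without 1 replicate they numbered 4 to 7, or 6.35% to 11.1%, against 1.4% to 2.5%. Members with less stayed at 2, or 3.17%, but the share of all nuclear genes fell from 11.8%. It was 8.74% at an FDR of 0.01 and 4.85% in all 3 tables. Without replicate 1, 2 or 3 it was 4.76%, 7.13% and 8.67%.

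A fit with the replicate number as a block called 0 members in each of the 6 comparisons where it was run. Same-numbered seedling libraries deviated together at correlations of -0.215 to 0.260 for number 1, -0.216 to 0.219 for number 2 and 0.288 to 0.560 for number 3. Number 3 thus ties libraries across genotypes, numbers 1 and 2 do not, and the numbers were not taken as pairs. The members' median in rosettes was -0.064 with the block, against 0.13 as reported. In shallow libraries 1 read is worth up to 5.00 normalized reads, which limits members under about that level.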
